A study of Mus musculus with 3 samples.

Results

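Bnip3, Bnip3l, Adm, Vegfa, Slc2a1, P4ha1, Egln3 and Ndrg1 are 8 genes known to be switched on when mammalian cells run short of oxygen. They were taken by name, 8 of the 50507 genes in the count table (30812 of which had a count), and the set was chosen by 2 measured differences: that of Bnip3 between transfected controls and untransfected cells, and that of Adm between the libraries labelled siBrca1 and the non-targeting control. Values from those 2 comparisons are therefore given as a description, with no test. Both used the nt libraries, which also serve as the control in part of what follows. The first also took in the Mock and Day06 libraries.

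Cells sense oxygen through the transcription factor HIF. In well-oxygenated cells, prolyl hydroxylases mark the HIF alpha subunit, the VHL ubiquitin ligase binds the mark, and the subunit is destroyed. When oxygen is scarce the subunit lasts, pairs with ARNT and binds a short sequence near its target genes. The targets shift energy supply to glycolysis, remove mitochondria, call in blood vessels and modify collagen, and the target Egln3 feeds back by marking HIF again.

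The cells were wild-type BL6 primary mouse embryonic fibroblasts (MEFs) that carried lentiviruses for rtTA and a doxycycline-inducible cassette of Oct4, Sox2, Klf4 and c-Myc (OSKM), plated for infection at passage 1 and reprogrammed at passage 2. The reprogramming medium held 2 ug/mL doxycycline, 3 uM chiron (a GSK3 inhibitor), LIF, ascorbic acid at 50 ug/mL and 0.25 uM Alk5i, which blocks a TGF-beta receptor. In the screen, pooled siRNAs at 40 nM were delivered with a lipid reagent the day before induction, and the cells were collected at day 6, in 33 siRNA conditions (98 libraries), a non-targeting siRNA control called nt (3 libraries) and a control labelled Mock (5 libraries). Replicates 1 and 2 each held a pair of Mock libraries under the same name. The labels do not say whether such a pair came from separate cultures. In the time course, cells that had not been transfected were collected on each day from Day00 to Day06 (21 libraries, 3 a day). Day06 thus shared its medium, transgenes and collection day with nt and Mock but not the transfection. The protocol also gave transfected cells an extra day with the mix before induction. The part of that day cannot be told apart from that of the transfection. The RNA of each replicate was barcoded, pooled and sequenced as 1 of 3 pools, so a replicate number marks a pool. The study describes the siRNA replicates as separate transfections and the time-course replicates as independent, and does not say whether they came from different embryos.

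The libraries were shallow, with 29656 to 235292 transcript counts each and a median of 73279. Replicate 3 was the deepest, with a median of 127079 against 64227 and 63122 in replicates 1 and 2. Levels are given as CPM: counts divided by the library total times its TMM factor (a scaling for RNA composition), per 1000000. The culture carried fibroblast RNA: the 8 fibroblast markers examined (Col1a1, Col1a2, Col3a1, Thy1, Postn, Fn1, Vim and Pdgfrb) summed to 4924 to 6808 CPM at Day00. The 6 endothelial markers summed to 0 to 17.7 CPM and the 5 macrophage markers to 107.8 to 194.8 CPM in the same libraries, with 5 and 2 of them at 0. The siRNA targets could be checked only weakly in these libraries. Of the 17 targets with more than 3 counts in nt, 13 had a lower pooled CPM in their siRNA by any margin, however small (Kmt2e, 61.9 against 62.2 CPM), and none of the 9 that could be tested passed an adjusted p of 0.05. The target Ep300 went the other way, with 17 counts in siEp300 against 3 in nt, a ratio of 3.87 (95% counting interval 1.12 to 20.6), so those are called the libraries labelled siEp300. Brca1 (4 counts against 2) and Hdac1 (127.7 against 79.5 CPM, edgeR adjusted p 0.717) were also not lower, and the same wording is used for them. Nor were Trp53 (27.93 against 27.65 CPM), Eny2 (112.2 against 110.6) and Prmt7 (13.89 against 13.82). The same held for Tead2 (2 counts against 2), Setdb1 (2 against 1), Myc (2 against 2) and Kmt2d (1 against 0). Cbx7, Phf1 and Tdrd7 had 0 in both. All siRNA names here are those of the labels, whatever the target counts were. Wdr5 had 7 counts against 9 in nt, and Bard1 had 0 against 2.

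Detection divided the 8 genes. Bnip3 had 2766 counts and was seen in 127 of 127 libraries, Bnip3l had 748 counts in 122 libraries and Adm 426 in 116. These were the only 3 members that passed the filter on low counts. The other 5 had 71 to 192 counts in all and were missing from 39 to 77 libraries. Their changes could be tested only because they were listed, and a missing test result for them says little.

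Bnip3 lies on chromosome 7 from 138890836 to 138909519 on the minus strand (mm10, as are all positions here), and Bnip3l on chromosome 14 from 66985239 to 67008877, also minus. Both encode outer mitochondrial membrane proteins that bind LC3 family proteins and so mark mitochondria for removal by autophagy. Adm, the vasodilator peptide adrenomedullin, lies on chromosome 7 from 110627661 to 110629820 (plus strand), and Vegfa, the main growth factor for blood vessels, on chromosome 17 from 46016993 to 46032369 (minus). Slc2a1, the glucose transporter GLUT1, lies on chromosome 4 from 119108711 to 119137983 (plus). P4ha1, the catalytic subunit of the enzyme that hydroxylates collagen prolines, lies on chromosome 10 from 59323296 to 59373304 (plus). Egln3, a prolyl hydroxylase that acts on HIF itself and closes a negative feedback loop, lies on chromosome 12 from 54178981 to 54203860 (minus), and Ndrg1, a stress-responsive gene, on chromosome 15 from 66929318 to 66969640 (minus). Counts of Bnip3l are uncertain, because the pseudogene Bnip3l-ps is 99.4% identical over 1131 bases and itself had 328 counts. The 4 near-identical copies of Bnip3 had 0 to 4 counts, and genes that overlap Bnip3, Slc2a1 and Ndrg1 on the opposite strand had 0 to 3.

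The HIF binding site has the core ACGTG or GCGTG, and both were searched on both strands of the 250 bases before the RefSeq start of each gene (GRCm38.p6). Windows were found for 6 of the 8 genes, with Vegfa having 2, and 6 genes had a match in at least 1 window. The Vegfa window before the main start had none, and its matches lie in the other window (chr17:46025164-46025413), which is inside the gene. Among all 32851 windows of that length, 38.6% held at least 1 match, 16.7% at least 2, 6.58% at least 3 and 1.01% at least 5. Bnip3 held 5 matches. They include a palindromic CACGTG counted on both strands, so they lie in 4 separate stretches, the farthest 117 bases before the start. P4ha1 held 3, Adm and Slc2a1 2 each, Egln3 1, and the 2 Vegfa windows 0 and 2, in that order. The sequences of Bnip3, P4ha1, Adm and Egln3 are given 5′ to 3′ on the gene's strand, with the matches in capitals, so that the clustered sites of Bnip3 can be set beside the sparser ones of Egln3. A match is a description of the letters, not of binding.

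Bnip3 (chr7:138909507-138909756, minus): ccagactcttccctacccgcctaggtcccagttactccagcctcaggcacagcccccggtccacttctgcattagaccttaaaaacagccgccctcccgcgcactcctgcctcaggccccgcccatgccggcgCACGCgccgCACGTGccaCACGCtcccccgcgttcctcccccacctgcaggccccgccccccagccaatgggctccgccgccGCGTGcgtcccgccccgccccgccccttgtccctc

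P4ha1 (chr10:59323046-59323295, plus): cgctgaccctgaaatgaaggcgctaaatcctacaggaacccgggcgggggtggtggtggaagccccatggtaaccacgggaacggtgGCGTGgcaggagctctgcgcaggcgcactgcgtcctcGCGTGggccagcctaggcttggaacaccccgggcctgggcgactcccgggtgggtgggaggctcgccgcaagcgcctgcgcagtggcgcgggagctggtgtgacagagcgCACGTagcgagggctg

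Adm (chr7:110627407-110627656, plus): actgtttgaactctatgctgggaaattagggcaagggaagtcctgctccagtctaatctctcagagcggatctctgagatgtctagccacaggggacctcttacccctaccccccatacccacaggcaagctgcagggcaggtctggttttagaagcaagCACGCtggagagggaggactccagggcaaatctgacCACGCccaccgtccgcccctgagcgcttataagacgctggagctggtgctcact

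Egln3 (chr12:54203875-54204124, minus): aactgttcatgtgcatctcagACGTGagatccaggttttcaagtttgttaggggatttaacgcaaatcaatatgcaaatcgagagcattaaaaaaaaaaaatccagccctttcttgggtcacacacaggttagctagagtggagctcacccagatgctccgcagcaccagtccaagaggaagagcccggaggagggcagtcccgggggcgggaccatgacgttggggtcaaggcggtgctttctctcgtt

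The first question was what the genes did during reprogramming without transfection. Bnip3 stayed low on every day, the secreted peptide gene Adm was at its highest on Day03, and no member passed the test on any day. Of the 48 gene and day pairs tested against Day00, 0 had an adjusted p under 0.05 (edgeR quasi-likelihood test, Benjamini-Hochberg over all genes tested), 5 had an unadjusted p under 0.05, and of all genes and days 17.2% were called. Other processing called 1 of the 48: Bnip3l was lower on Day04 with RLE size factors (adjusted p 0.0315) and with DESeq2 (adjusted p 0.0344), and Bnip3 was higher on Day05 in limma on the deposited log2 values (1.32, adjusted p 0.0408).

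Bnip3 was at 17.7, 94.3 and 50.3 CPM in the 3 Day00 libraries and at 62.1, 45.7 and 58.6 CPM on Day06. It was highest on Day05, at 96.7, 147.9 and 73.5 CPM, and lowest on Day01, at 20.9, 64.1 and 29.95 CPM. The days overlapped, and the largest difference from Day00, on Day05, was a log2 fold change of 0.87 ± 0.50 (SE, n = 3 against 3, edgeR adjusted p 0.178). In the replicate 3 library of Day04 it had 2 counts, 12.6 CPM, beside 134.8 and 86.3 in the other libraries of that day.

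Bnip3l was at 141.7, 56.6 and 86.2 CPM on Day00, at 278.4, 76.4 and 153.7 on Day03 and at 28.9, 43.1 and 25.2 on Day04. Every Day04 library was below every Day00 library, and the log2 fold change of -1.46 ± 0.56 had an edgeR adjusted p of 0.054. The Day01 value was -1.60 ± 0.64 (edgeR adjusted p 0.0962). Bnip3l-ps followed the same days in counts, with 10 on Day00, 16 on Day03 and 3 on Day04, against 23, 44 and 12 for Bnip3l, and reads of the 2 genes cannot be told apart over the shared sequence.

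Adm was at 53.1, 132.0 and 21.6 CPM on Day00, at 154.7, 137.4 and 131.7 on Day03 and at 12.4, 30.4 and 23.4 on Day06. The Day03 libraries lay close together while those of Day00 were spread, and the highest Day00 library just passed the lowest Day03 library. The log2 fold change on Day03 was 1.31 ± 0.56 (edgeR adjusted p 0.124, unadjusted 0.0198) and on Day06 -1.28 ± 0.74 (edgeR adjusted p 0.232). The receptors through which Adm and Vegfa act were also examined as a list of 8 genes, and 1 was lower on Day06 and none higher, a share near that of all genes (373 of 3093 lower and 302 higher). It was Nrp1, a VEGF co-receptor, with 3 counts against 15 (log2 fold change -2.52 ± 0.93, edgeR adjusted p 0.035).

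P4ha1 was at 70.8, 37.7 and 28.7 CPM on Day00 and at 0, 15.2 and 5.86 on Day06, with every Day06 library below every Day00 library. These rest on 10 counts against 2, a ratio of 0.157 (95% counting interval 0.0167 to 0.736), and the fitted log2 fold change of -2.44 ± 1.02 had an edgeR adjusted p of 0.0721. Vegfa had 20 counts over the 21 time-course libraries and none in the 3 Day01 libraries, where a count of 0 allows up to 12.4 CPM. Slc2a1 had 31 counts over the time course, Egln3 13 and Ndrg1 13. None of these sums allows an ordering of the days.

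**Figure D1:**
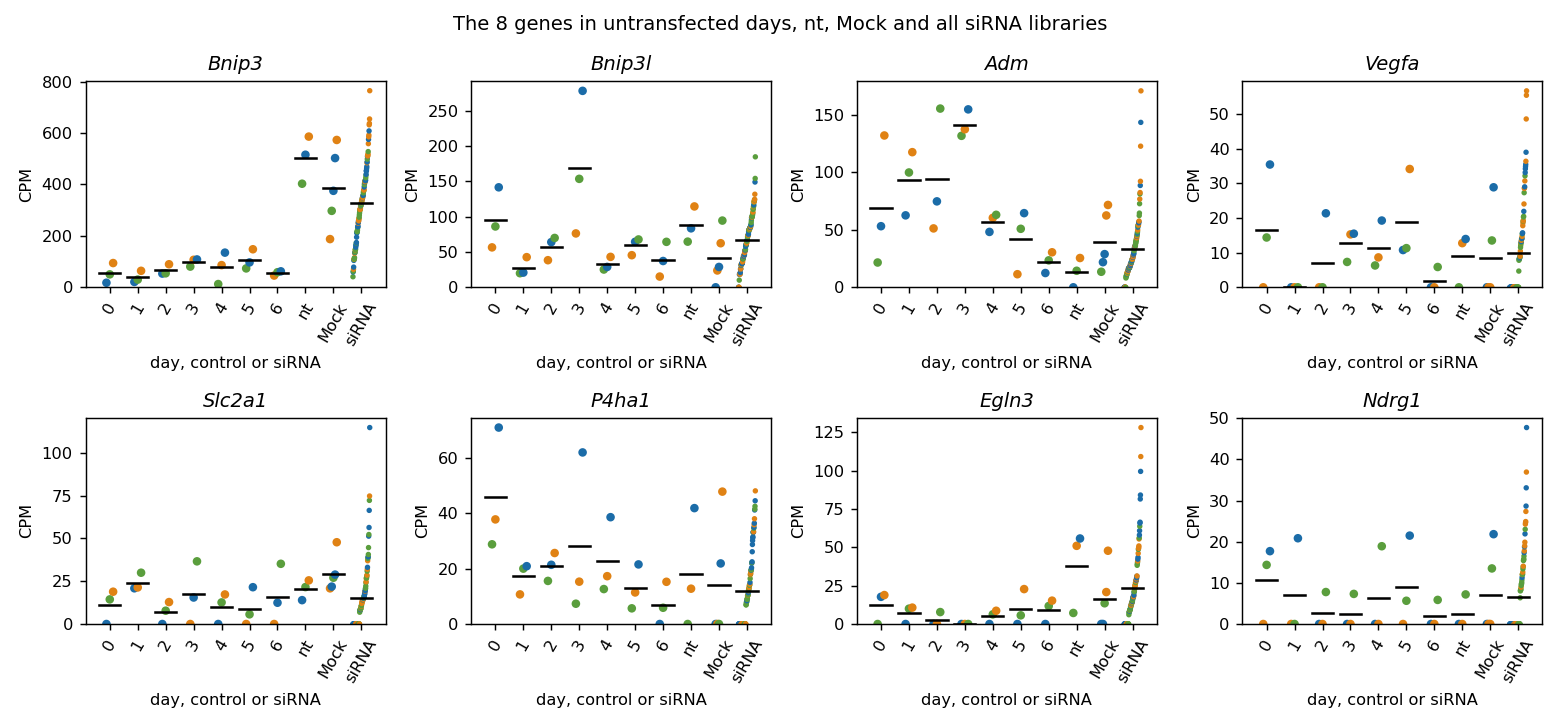
CPM (linear scale from 0) of each of the 8 genes in the 21 untransfected libraries by day, in nt (3), Mock (5) and all siRNA libraries (98), with points coloured by replicate (blue 1, orange 2, green 3) and black bars at group means. Bnip3 is at or below 147.9 CPM on all untransfected days and above that in all nt and Mock libraries, with siRNA libraries from 40.96 to 764.3 CPM, while Adm peaks on Day03 and the rarer genes scatter between 0 and a few counts.

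Other genes of the HIF system were examined as lists, and the share called on Day06 was near or below that of all genes tested, 21.8%, in each of them. Among 12 measured genes of the HIF machinery, Hif1a, the oxygen-regulated subunit, was lower: its mean of 924.2 CPM on Day00 (SD 215, n = 3) became 194.0 on Day06 (SD 25.9, n = 3), with a fitted log2 change of -2.29 ± 0.25 (edgeR adjusted p 6e-15). Rbx1, a subunit of the ligase that degrades it, rose from 100.2 to 265.6 CPM (1.26 ± 0.32, edgeR adjusted p 0.00123), and the others did not pass. Of 36 other HIF targets, 2 were higher and 6 lower. The higher were the glucose transporter Slc2a3, with 22 counts against 1 (3.70 ± 1.00, edgeR adjusted p 0.0024), and Tfrc, the transferrin receptor (1.47 ± 0.29, edgeR adjusted p 1.65e-05). The lower ones were led by 2 collagen crosslinking genes, Loxl2 with 0 counts against 16 and Lox, which fell from 1088 to 56.1 CPM (-4.50 ± 0.43, edgeR adjusted p 2.49e-19). Of the 13 glycolysis genes 0 passed. Of 16 mitophagy and autophagy genes 2 were lower, the LC3 family genes Map1lc3b (-1.23 ± 0.33, edgeR adjusted p 0.00281) and Gabarap (-0.91 ± 0.24, edgeR adjusted p 0.0023), and 0 higher. The median log2 fold changes were -1.14 for the 8 members, -0.39 for the machinery, -0.07 for the other targets, -0.06 for glycolysis, -0.58 for mitophagy and autophagy, and 0.00 for all genes. The fibroblast markers moved as well, 6 of 8 lower and 0 higher, with sums of 4924 to 6808 CPM on Day00 and 1857 to 2622 on Day06, and their part in these values was not tested.

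The second question was how the transfected cells stood beside untransfected cells of the same day. Bnip3 was at 515.4, 585.9 and 402.7 CPM in nt, at 502.3, 375.1, 572.8, 187.4 and 297.2 in Mock and at 62.1, 45.7 and 58.6 in Day06. Every nt and every Mock library was above every Day06 library. The fitted log2 difference was 3.02 ± 0.35 for nt and 2.59 ± 0.37 for Mock, and over all counts the ratio of nt to Day06 was 8.46 (95% counting interval 5.16 to 14.7). This is the comparison that chose Bnip3, so it carries no test. In 17.3% of all genes the lowest nt library was above the highest Day06 library. Over the 98 siRNA libraries Bnip3 ran from 40.96 to 764.3 CPM with a median of 327.3, and over the 21 time-course libraries from 12.6 to 147.9 with a median of 64.1.

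Against Day06 itself, the ratio of the pooled siRNA libraries was 5.30 for Bnip3 (95% counting interval 3.34 to 8.95); the Day06 libraries belong to the comparison that chose Bnip3, so its distance from 1 is a description. For the other 7 members the interval included 1: Egln3 2.21 (0.742 to 10.8), P4ha1 1.94 (0.521 to 16.2), Bnip3l 1.52 (0.913 to 2.73), Adm 1.499 (0.717 to 3.76) and Slc2a1 0.701 (0.330 to 1.78), with Vegfa and Ndrg1 resting on 1 count each on Day06. The intervals of Bnip3l and Slc2a1 ended below that of Bnip3, and those of the rest overlapped it. Bnip3 was chosen for this difference, and whether the members differed from it was not tested. In nt the fitted log2 differences from Day06 were 1.56 ± 0.98 for Egln3, 0.98 ± 1.20 for P4ha1, 0.90 ± 0.54 for Bnip3l, 0.83 ± 1.51 for Vegfa, 0.12 ± 1.68 for Ndrg1, 0.02 ± 0.98 for Slc2a1 and -0.64 ± 0.92 for Adm. Set against all 7 days together, which differ from the transfected cells in day as well, the siRNA libraries were at 71.9 CPM for Bnip3l (66.1 to 78.0) beside 66.8 (56.2 to 78.8). Egln3 was at 20.9 (17.8 to 24.3) beside 6.16 (3.28 to 10.53), a ratio of 3.39 (1.93 to 6.51). Adm was at 33.1 (29.2 to 37.4) beside 71.1 (60.1 to 83.4), where the time-course level comes from the earlier days, and was at 22.1 on Day06 (8.88 to 45.5), 13.8 in nt (3.77 to 35.4) and 36.8 in Mock (16.8 to 69.9). P4ha1 had a ratio of 0.644 (0.442 to 0.956) over all days, on the other side of 1 from its value against Day06. These intervals cover counting error only, and the time course sums 7 days. Fewer cells that express a gene and less RNA per cell cannot be told apart in such bulk libraries.

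Mock and nt were compared to see whether siRNA in the mix moved the genes. Both controls belong to the comparison that chose Bnip3, and the nt counts of Adm to the one that chose Adm. The tests of these genes are therefore not independent of that choice. Of the 8 members 0 were called by edgeR, 0 had an unadjusted p under 0.05, DESeq2 and limma also called 0, and of all genes 1.33% were called. The log2 fold change of Bnip3 in Mock was -0.43 ± 0.25 (n = 5 against 3, edgeR adjusted p 0.539), with Mock libraries on both sides of the lowest nt library. Adm had 9 counts in Mock against 4 in nt, a ratio of 2.66 (95% counting interval 0.744 to 11.8).

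The third question was in which siRNA conditions the genes differed at day 6. Bnip3 divided the siRNAs: it was lowest in siWdr5, siBard1 and the libraries labelled siEp300, within the range of the 21 untransfected libraries though mostly above those of Day06, and highest in siApex1. Wdr5 is a core subunit of MLL-type histone H3K4 methyltransferases, Bard1 the partner of Brca1 in a ubiquitin ligase, Ep300 a histone acetyltransferase that HIF uses as a coactivator, and Apex1 a DNA repair nuclease that also keeps transcription factors reduced.

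Because the nt libraries were among those that chose Bnip3, each siRNA was first set against the mean of the other siRNAs, which uses no control library. This could be tested for Bnip3, Bnip3l and Adm only, since the other 5 members had no count in 1 to 7 siRNA conditions. Bnip3 was lower in 3 of 32 siRNAs and higher in 3, Adm higher in 1 and Bnip3l called in none. Of all gene and siRNA pairs 1.55% were called lower and 2.75% higher.

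In siWdr5, Bnip3 was at 78.5, 110.5 and 40.96 CPM, a log2 difference of -2.06 ± 0.29 from the other siRNAs (edgeR adjusted p 7.67e-10). In siBard1 it was at 104.6, 70.3 and 115.1 CPM (-1.51 ± 0.26, edgeR adjusted p 2.08e-06). In the libraries labelled siEp300 it was at 59.7, 132.2 and 136.5 CPM (-1.27 ± 0.23, edgeR adjusted p 7.68e-06). All 9 libraries lay below the lowest nt library and below the lowest Mock library, though these controls are high for Bnip3 by the choice of this gene. Within its own pool each of the 9 was below the median siRNA library.

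Bnip3 was higher in siApex1, at 509.1, 764.3 and 527.6 CPM (1.05 ± 0.19, edgeR adjusted p 1.81e-05). It was also higher in siNcor1, which targets a nuclear receptor corepressor, at 389.9, 654.4 and 498.3 CPM (0.84 ± 0.19, edgeR adjusted p 0.000393). In siWhsc1l1, which targets a histone methyltransferase, it was at 608.0, 637.2 and 301.0 CPM (0.73 ± 0.21, edgeR adjusted p 0.0237). These 3 overlapped the nt libraries, and set against nt their log2 fold changes were 0.28, 0.08 and -0.03 with adjusted p-values of 0.803, 0.948 and 0.99, so they were called against the other siRNAs and not against the control. The siWhsc1l1 call was lost without replicate 1 (adjusted p 0.501) and without replicate 2 (0.238), and the siNcor1 call without replicate 3 (0.0593).

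**Figure D2:**
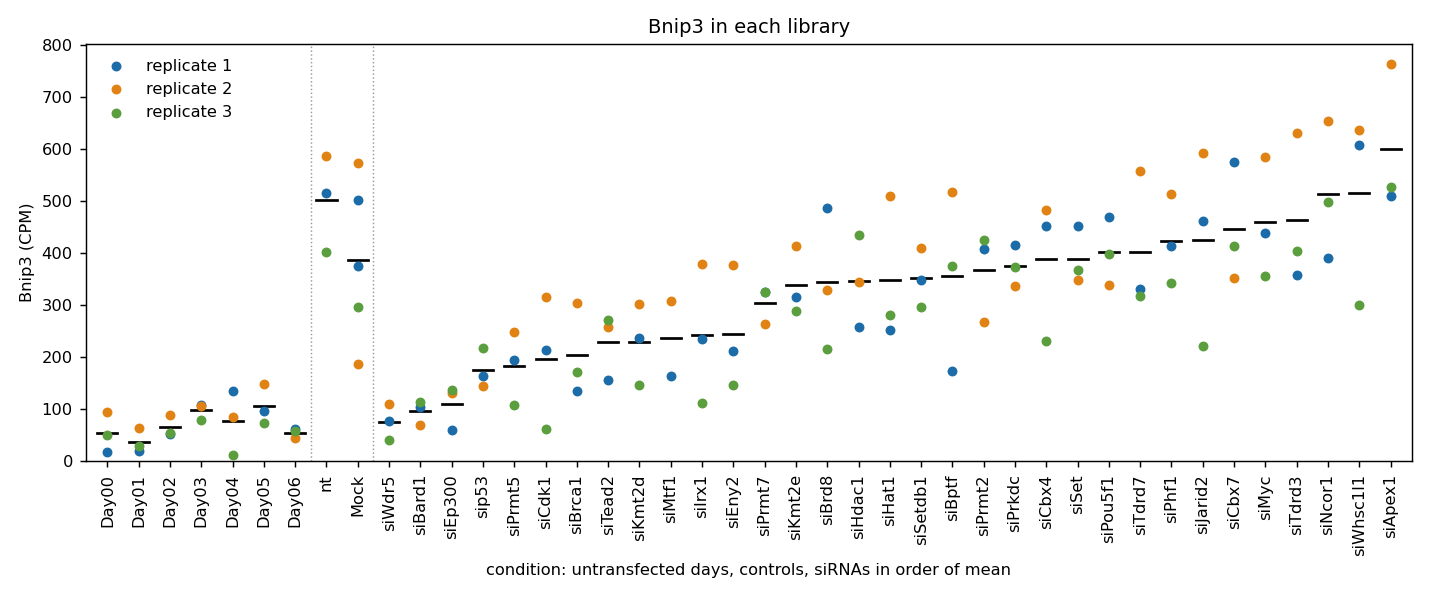
Bnip3 CPM (linear scale from 0) in each of the 127 libraries by condition: untransfected days, then nt and Mock, then the 33 siRNAs in order of mean. Points are libraries coloured by replicate and bars are means. siWdr5, siBard1 and the libraries labelled siEp300 lie with the untransfected days, below every nt and Mock library. These controls are high for Bnip3 by the choice of this gene.

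In order of mean, the transfected conditions ran from 600.3 CPM in siApex1 (SD 142.3, n = 3) to 76.7 in siWdr5 (SD 34.8, n = 3), with nt at rank 4 of 42 at 501.3 (SD 92.4, n = 3) and Mock at rank 14 at 387.0 (SD 154.8, n = 5). Neighbours in the order of all 42 differed by less than the larger of their SDs, with 1 exception, the step of 66.0 CPM from sip53, at 175.5 (SD 37.3, n = 3), down to the libraries labelled siEp300, at 109.5 (SD 43.1, n = 3). Below it lay only those libraries, siBard1, siWdr5 and the 7 untransfected days.

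Against nt, Bnip3 was called lower in 9 of 32 siRNAs and higher in 0, beside 1.25% of all gene and siRNA pairs called lower and 1.25% called higher. The 32 comparisons share the 3 nt libraries, which are high for Bnip3 by the choice of this gene. The log2 fold changes were -2.74 ± 0.34 in siWdr5 (edgeR adjusted p 3.83e-12), -2.21 ± 0.31 in siBard1 (5.06e-09) and -1.97 ± 0.29 in the libraries labelled siEp300 (2.28e-08). The other 6 were siPrmt5 (-1.53), siCdk1 (-1.44), sip53 (-1.38), siKmt2d (-1.18), siIrx1 (-1.15) and siEny2 (-1.10), with adjusted p-values from 0.000347 to 0.00634. None of these 6 differed from the mean of the other siRNAs at an adjusted p of 0.05 (lowest 0.0793, siCdk1). siMtf1, with 2 libraries, and siTead2 had values of -1.19 and -1.01 with adjusted p-values of 0.065 and 0.0501. With the 8 nt and Mock libraries pooled as controls 9 were lower, but that control holds the same nt libraries and Mock, which was also high for Bnip3 beside Day06, so it is no independent check. In the model without the replicate block the count for all members fell from 10 to 4: Bnip3 in siWdr5, siBard1 and the libraries labelled siEp300, and Adm in siWdr5. Without replicate 3 it was 5. In limma on the deposited log2 values it was 3, and the libraries labelled siEp300 no longer passed against nt (-1.72, adjusted p 0.15) or against the other siRNAs (-0.76, adjusted p 0.999). Against the other siRNAs limma left only the call of Bnip3 in siWdr5: Adm in siWdr5 was at 0.82 (adjusted p 0.439), and for Bnip3 siBard1 was at -1.19 (adjusted p 0.0625), siApex1 at 0.89 (0.462), siNcor1 at 0.49 (0.758) and siWhsc1l1 at 0.28 (0.86). The condition labelled siBrca1, whose values were in view when the genes were chosen, is given as a description: Bnip3 was at 135.4, 303.7 and 172.5 CPM, all below nt.

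**Figure D3:**
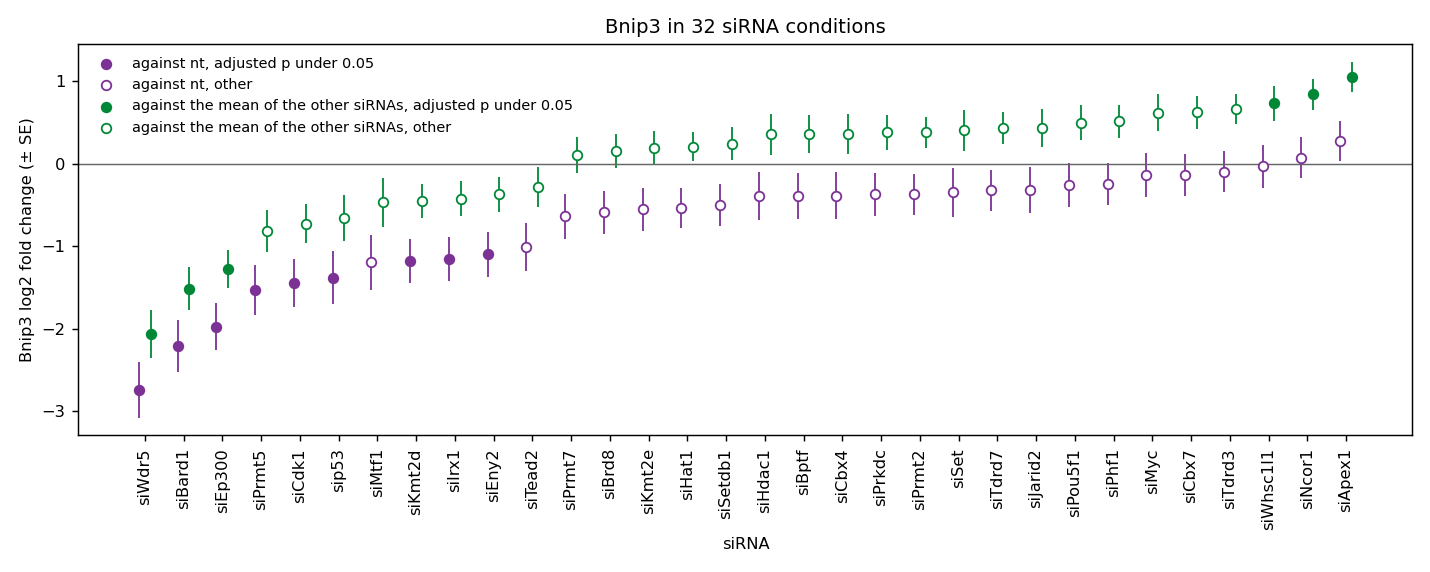
Log2 fold change of Bnip3 (± SE) in each of 32 siRNAs against nt (purple) and against the mean of the other siRNAs (green), with filled points for an adjusted p under 0.05. siWdr5, siBard1 and the libraries labelled siEp300 are filled below 0 in both, and siWhsc1l1, siNcor1 and siApex1 are filled above 0 in the second only.

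Adm was called in 1 siRNA, siWdr5, where Bnip3 was lowest. It was at 56.1, 122.7 and 24.6 CPM, against 0, 25.5 and 14.4 in nt, where it rests on 4 counts. These nt counts are also those of the siBrca1 comparison that chose Adm, so the test against nt is not independent of that choice. The log2 fold change was 2.08 ± 0.77 (edgeR adjusted p 0.0325), the ratio of counts 4.45 (95% counting interval 1.47 to 18.1), and 1 nt library lay above the lowest siWdr5 library. Against the mean of the other siRNAs the difference was 1.13 ± 0.45 (edgeR adjusted p 0.0343). Both calls were lost without replicate 1 (adjusted p 0.147 and 0.0587) and without replicate 2 (0.241 and 0.541), and the first also without replicate 3 (0.063). Adm was above nt in 28 of the 32 siRNAs, but they share the same 4 control counts, and with the nt and Mock libraries pooled as controls 0 were called (lowest adjusted p 0.0551). In the libraries labelled siHdac1 it was at 143.4, 28.7 and 42.1 CPM (2.14 ± 0.89 against nt, edgeR adjusted p 0.266). In those labelled siBrca1 it was at 16.9, 170.8 and 81.2 CPM, a fitted difference from nt of 2.52 ± 0.77, given without a test because this value brought Adm forward.

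Bnip3l, the close relative of Bnip3, was called in 0 of 32 siRNAs against nt and 0 against the others, with no unadjusted p under 0.05 in the first and 2 in the second. In siWdr5, where Bnip3 was lowest, Bnip3l had 18 counts against 24 in nt (log2 fold change -0.44 ± 0.52, edgeR adjusted p 0.547). Its highest siRNA means were in siTead2, at 125.2 CPM (SD 55.98, n = 3), and siSetdb1, at 118.5 (SD 33.9, n = 3), beside 87.6 in nt.

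Egln3 had 0 counts in siCdk1 and sip53 and 1 in siWdr5, against 9 in nt, and its highest means were in siPrkdc, at 70.25 CPM (SD 55.7, n = 3), and siApex1, at 54.3 (SD 32.9, n = 3). No siRNA was called for it against nt (lowest adjusted p 0.0651, siWdr5), and 4 had an unadjusted p under 0.05. The Pearson correlation of its condition means with those of Bnip3 was 0.64 over all 42 conditions and 0.60 over the 35 transfected ones, but -0.44 over the 7 untransfected days. For Adm the values were -0.58, -0.39 and 0.09, and for Bnip3l 0.08, -0.02 and 0.57. For the other 4 members they lay between -0.29 and 0.24 over the 42 and the 35 conditions, and between -0.49 and 0.70 over the 7 days. These are descriptions over points that share pools and depth.

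**Figure D4:**
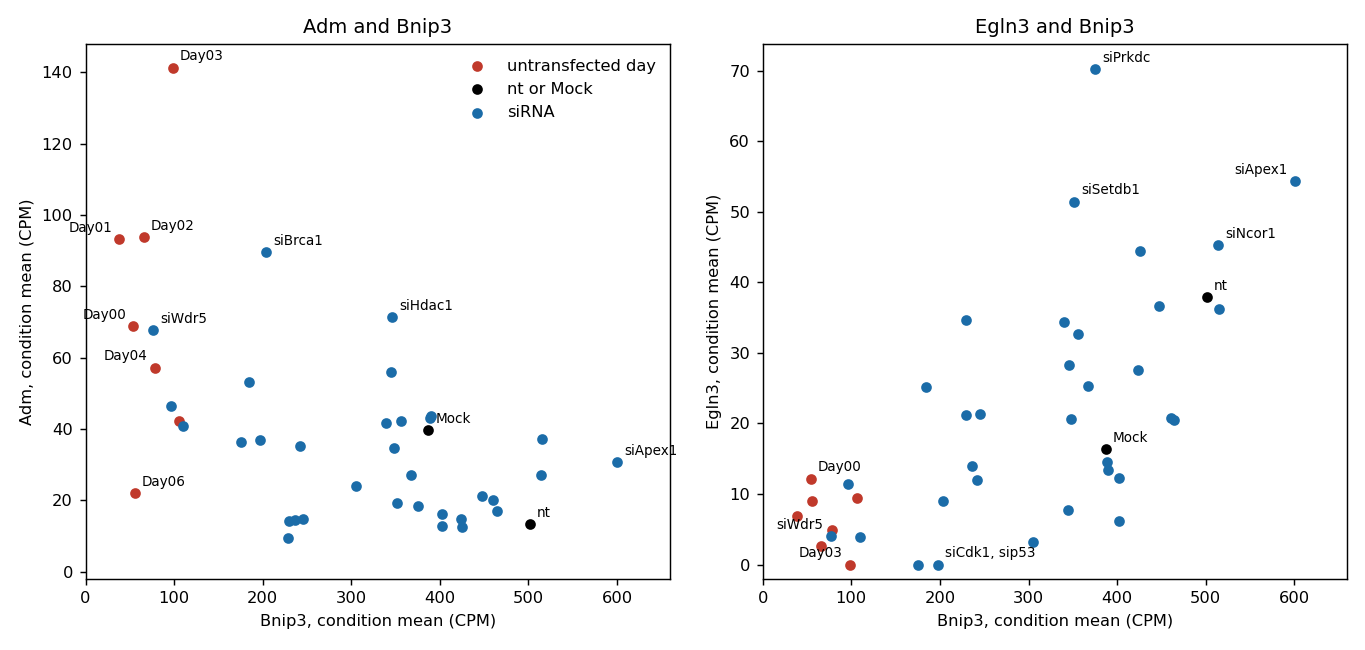
Condition means of Adm (left) and Egln3 (right) against Bnip3, in CPM on linear scales, for the 7 untransfected days (red), nt and Mock (black) and 33 siRNAs (blue). Adm is highest on Day03 at 141.3 CPM, while Day06, also low in Bnip3, is at 22.1 CPM, and Egln3 is highest in siPrkdc and siApex1 and at 0 on Day03 and in siCdk1 and sip53.

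The 4 remaining members were called in none of the 32 siRNAs against nt; the siRNAs given for them were chosen after their values were seen. Slc2a1 had 1 count in siWdr5 and 1 in the libraries labelled siEp300 against 6 in nt (edgeR adjusted p 0.202 and 0.203). Vegfa was highest in siPrmt7, at 34.2, 56.7 and 19.1 CPM from 7 counts (2.02 ± 1.13, edgeR adjusted p 0.512). P4ha1 was highest in siPrkdc, at 21.9, 48.0 and 42.5 CPM from 9 counts (1.44 ± 0.92, edgeR adjusted p 0.525). Ndrg1 was highest in the libraries labelled siEp300, at 47.8, 12.02 and 15.6 CPM from 9 counts against 1 in nt (2.24 ± 1.22, edgeR adjusted p 0.284).

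The genes most like Bnip3 over all 42 conditions, among 2716 with a mean of at least 50 CPM, were not of the low-oxygen response by name. The first 9 were Gm28661, Gm15772, Rps20, Gm5045, Gm6274, mt-Co2, Naca, Rpl37rt and Gm9493, with r from 0.849 to 0.870. The 42 conditions include nt, Mock and Day06, whose difference chose Bnip3. This ranking is therefore a description and not independent of that choice. Rps20 encodes a ribosomal protein, Naca a ribosome-associated chaperone and mt-Co2 a subunit of cytochrome c oxidase. Over the 35 transfected conditions alone the first was Pgk1, the glycolytic enzyme phosphoglycerate kinase and a classic HIF target, with r = 0.816; it and the genes in the next lines were named after their values were seen.

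In the 3 siRNA conditions with the lowest Bnip3, the list of HIF-regulated glycolysis genes held calls in 1 direction. Of 13, 4 were lower in siWdr5, 3 in siBard1 and 3 in the libraries labelled siEp300, and 0 were higher, beside 14.7%, 5.04% and 2.78% of all genes called lower and 11.9%, 5.24% and 2.78% called higher. This list holds Pgk1, the gene most like Bnip3 over the transfected conditions, and the 3 conditions were those lowest in Bnip3. The counts are therefore a description and not independent of that choice. The median log2 fold changes of the 13 genes were -0.79, -0.86 and -0.67, against 0.00, -0.05 and -0.04 over all genes. Pgk1, which was picked for its likeness to Bnip3 over these conditions so that its direction follows from the choice, was at 1676 CPM in nt (SD 326.7, n = 3) and at 532.8 (SD 145.1) in siWdr5, 520.3 (SD 209.6) in siBard1 and 726.7 (SD 146.4) in the libraries labelled siEp300, and Tpi1 and Ldha were called lower in all 3. Of the 36 other HIF targets 1, 1 and 0 were higher and 4, 3 and 1 lower, with Lox as the higher one in siWdr5 and siBard1 and Higd1a among the lower in all 3, of the 12 machinery genes 1, 1 and 0 were higher, and of the 16 mitophagy and autophagy genes 1, 0 and 0. The last was Map1lc3b in siWdr5 (1.29 ± 0.38, edgeR adjusted p 0.00627). Hif1a was higher in siBard1, at 254.1 against 106.4 CPM (1.12 ± 0.34, edgeR adjusted p 0.0159), and did not pass in the other 2. These contrasts share the nt libraries. Fibroblast markers moved with them: 5, 4 and 3 of 8 were higher than in nt and 0 lower, and their sums were 1136 to 1312 CPM in nt, 3443 to 4014 in siWdr5, 1996 to 2614 in siBard1 and 1755 to 3152 in the libraries labelled siEp300. The epithelial and early pluripotency markers summed to 122.3 to 236.8 CPM in nt, 33.7 to 73.6 in siWdr5, 0 to 109.0 in siBard1 and 71.7 to 192.3 in the libraries labelled siEp300, and 0 of the 8 were called in any of the 3. Whether these marker changes have a part in the Bnip3 values was not tested. On Day06, where Bnip3 was at 45.7 to 62.1 CPM, the fibroblast sum was 1857 to 2622 CPM.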

How the data were processed

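Messenger RNA was measured by CEL-Seq2, a 3′ counting method with sample barcodes and unique molecular identifiers, in 3 sequenced pools. The authors aligned reads with Bowtie2 to mm10, counted molecules per gene with the CEL-Seq2 pipeline, and deposited raw UMI counts and a second table of log2 values made with scater and scran after regressing out the batch. Each column was assigned to its condition by its name. Of 129 libraries, 127 were used; 1 siMtf1 and 1 Mock library of replicate 3 with 7981 and 6403 counts, left out of the log2 table, were not used. The deposited counts were fitted with edgeR 4.0.16 (R 4.3.3): filterByExpr, TMM factors, a quasi-likelihood model of condition plus replicate, and Benjamini-Hochberg adjustment over 3093 genes at 0.05. Of these, 3013 passed the filter and the rest were added because they were listed. SE is the absolute log2 fold change over the square root of F. Intervals of levels are exact 95% Poisson intervals. Those of ratios are exact 95% binomial intervals on the split of the counts between the groups. Both cover counting error only. A count of 0 was given the limit of 3 counts.

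The replicate number marks a pool per the labels. Deviations from condition means had a median correlation of 0.0988 within a number and -0.0692 between numbers. Replicates differed beyond counting noise in all 131 pairs (chi-square per gene 1.30 to 5.69), so none was counted as a duplicate. Alternatives were DESeq2 1.42.0, limma 3.58.1 on the log2 values, RLE factors, no filter, no block, all libraries, the time course alone, nt with Mock, and leaving out each replicate. The scripts were tested on simulated data. The members and gene lists were chosen with earlier results of these data known. Named outside the members were the 10 genes most like Bnip3 (1 of which is not reported here), up to 2 genes per list and direction on Day06, and siRNAs in which a member was called; others are marked as chosen after their values were seen. Copies of member transcripts were sought with blastn 2.17.0.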

Additional observations from a re-analysis of the deposited data

How the results depend on the processing

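The time course gave 0 calls among the members, and 1 with RLE size factors, 1 with DESeq2 and 1 in limma on the deposited log2 values; without 1 replicate at a time it stayed at 0. The siRNAs against nt gave 10 calls, 4 with no replicate block, 3 in limma, and 5 to 8 when 1 replicate was left out. Against the other siRNAs 7 calls became 1 in limma and 5 to 7 with 1 replicate left out. The difference of Bnip3 between nt and Day06, 3.02, was 2.58 in limma, 2.59 with Mock in place of nt, and 2.89 to 3.22 with 1 replicate left out. The cause of these changes was not tested. Bnip3 in siWdr5 kept its call against both references under all 9 alternatives shared by both, from -2.99 to -2.29 against nt and from -2.27 to -1.34 against the other siRNAs. The replicate block changed no call other than those named with the results and Bnip3 in siWhsc1l1 against the other siRNAs (0.76, adjusted p 0.175 with no replicate block). Without the filter on low counts, Adm in siWdr5 lost both calls (adjusted p 0.117 and 0.0638). RLE factors moved the median of all genes by -0.19 on Day05 and 0.16 in siWdr5 against nt. Shallow libraries limit Vegfa, Slc2a1, P4ha1, Ndrg1 and Egln3, for which most conditions hold fewer than 10 counts.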
